A study of Mus musculus with 24 samples.

Results

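Alveolar macrophage-like cells (AM-LCs), grown from mouse lung for 14 days with granulocyte-macrophage colony-stimulating factor (GM-CSF), were compared with the 3 tissue macrophage cultures of the same study that were grown with macrophage colony-stimulating factor (M-CSF). The comparison used 12 of the 24 RNA sequencing libraries, chosen by their labels as cultured cells: 3 of AM-LCs and 9 of the M-CSF cultures, which were 3 each of microglia-like cells from brain (MG-LCs), Kupffer-like cells from liver (KC-LCs) and peritoneal macrophage-like cells from lavage (PM-LCs). All came from female C57BL/6J mice of 8 to 12 weeks, with no transgene or deletion named in the labels, and all cell suspensions were plated unsorted on flasks coated with polyethylenimine, a polymer to which the cells adhere. MG-LCs also received interleukin 34, a second ligand of the M-CSF receptor. The M-CSF cultures were kept at 3% oxygen in high glucose medium, whereas AM-LCs were kept at atmospheric oxygen in medium without glucose. Tissue of origin, growth factor, oxygen and glucose therefore changed together between AM-LCs and the other cultures, and their contributions cannot be told apart in any comparison given here. A flask of AM-, MG- or PM-LCs pooled cells of 3 mice and a flask of KC-LCs held cells of 1 mouse; whether each library was 1 flask is not given in the sources used here, so p-values measure the spread between libraries.

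GM-CSF signals through a receptor made of a specific alpha chain (Csf2ra) and a beta chain shared with interleukin 3 and interleukin 5 (Csf2rb), which activates the kinase Jak2 and the transcription factor STAT5. In the lung it is supplied by alveolar epithelial cells, induces the nuclear receptor Pparg in fetal monocytes and is needed for alveolar macrophages to form and to clear surfactant. M-CSF and interleukin 34 share the receptor Csf1r, which maintains microglia, Kupffer cells and most other resident macrophages. Oxygen acts on transcription mainly through hypoxia-inducible factors, which are degraded when prolyl hydroxylases have oxygen, and glucose acts partly through the sensor pair MondoA and Mlx, whose best known target is Txnip.

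The 12 libraries held 31928003 to 47105111 counted reads each, so that a count of 3 reads, the most that an observed 0 allows at 95% confidence, stood for 0.0659 to 0.104 CPM (counts scaled to a common library size). This limit covers counting error only. Levels are given as CPM after TMM scaling, without correction for gene length, and do not rank genes against each other. The second principal component, with 22.7% of the variance, placed the 3 AM-LC libraries (72.2 to 139) apart from the 9 M-CSF libraries (-94.5 to -3.78). The first, with 33.9%, did not separate AM-LCs from the other cultures. RNA of collagen and mesothelial genes varied widely between libraries. The summed CPM of 8 fibroblast and mesothelium markers was 15.6, 165 and 1609 in AM-LC 1, 2 and 3. In the M-CSF libraries it ranged from 0.0220 to 30348, the highest being MG-LC 1, followed by 2069.9 in PM-LC 2 and 936 in MG-LC 3. None of the 8 genes passed the test between AM-LCs and the M-CSF cultures. Counts without the highest library of each of those cultures (AM-LC 3, MG-LC 1 and PM-LC 2) are given for gene groups with at least 3 calls in a direction, with or without these libraries, where that count moved by more than 1.5 times; the part of such cells in the results was not tested. Without these 3 libraries 1436 genes were higher and 891 lower, of 14835 tested. In these bulk libraries, fewer cells of a type and less RNA per cell cannot be told apart.

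**Figure D1:**
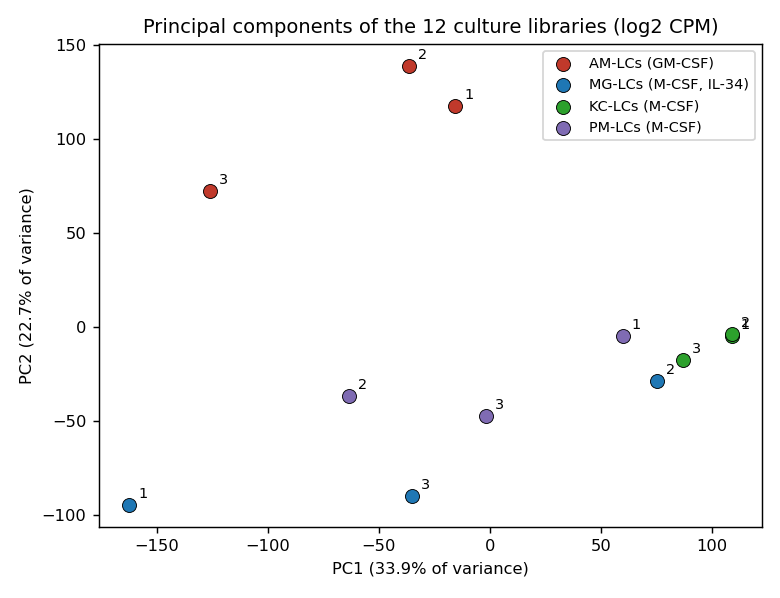
Principal components of log2 CPM in the 12 culture libraries, PC1 (33.9% of variance) against PC2 (22.7%), 1 point per library with its replicate number and coloured by culture. The 3 AM-LC libraries lie above 72 on PC2 and every M-CSF library lies below 0.

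More genes separated AM-LCs from the rest than separated any other culture. Of 14813 genes tested, 1241 were higher (8.38%) and 698 lower (4.71%) in AM-LCs than in the mean of the 3 M-CSF cultures at an adjusted p under 0.05, by the quasi-likelihood test of edgeR, adjusted after Benjamini and Hochberg. The same contrast, each culture against the mean of the other 3, called 50 genes higher and 33 lower for MG-LCs, 2 higher and 14 lower for KC-LCs and 60 higher and 18 lower for PM-LCs. Between pairs of M-CSF cultures, 2 genes were higher and 9 lower in MG- than in PM-LCs, and 2 higher and 14 lower in KC- than in PM-LCs. MG- against KC-LCs gave 0 calls by edgeR, the only tool run on that pair, with 2288 genes at an unadjusted p under 0.05. In 1160 genes (7.83%) all 3 AM-LC libraries lay above all 9 M-CSF libraries, and in 695 (4.69%) all lay below. The median log2 fold change over all genes tested was 0.003. The shares of 8.38% higher and 4.71% lower are the background for each count of list members given below. The counts rested on 3 AM-LC libraries: without AM-LC 1, 2 or 3 the genes higher numbered 673, 557 and 748 and the genes lower 302, 166 and 302, while without MG-LC 1 the genes lower numbered 1112. Of the 110 called genes named here with a fitted change, 66 kept their call whichever of the 12 libraries was left out.

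Each M-CSF culture was also compared with AM-LCs alone; these 3 comparisons share the AM-LC libraries. Against MG-LCs 733 genes were higher (4.95%) and 539 lower (3.64%) in AM-LCs. The KC-LC comparison gave 699 higher (4.72%) and 433 lower (2.92%), and the PM-LC comparison gave 417 higher (2.82%) and 367 lower (2.48%). These counts moved by more than 1.5 times with single libraries, and without 1 library they ranged from 205 to 914 and 89 to 788 for MG-LCs, from 181 to 1063 and 70 to 731 for KC-LCs, and from 88 to 733 and 51 to 685 for PM-LCs. The lowest followed from leaving out AM-LC 2 in 4 of these 6 counts, KC-LC 2 or PM-LC 1 in the other 2, and the highest from leaving out MG-LC 1. AM-LC 1 and 3, KC-LC 1 and 3, MG-LC 3 and PM-LC 3 each moved at least 1 of them as well.

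**Figure D2:**
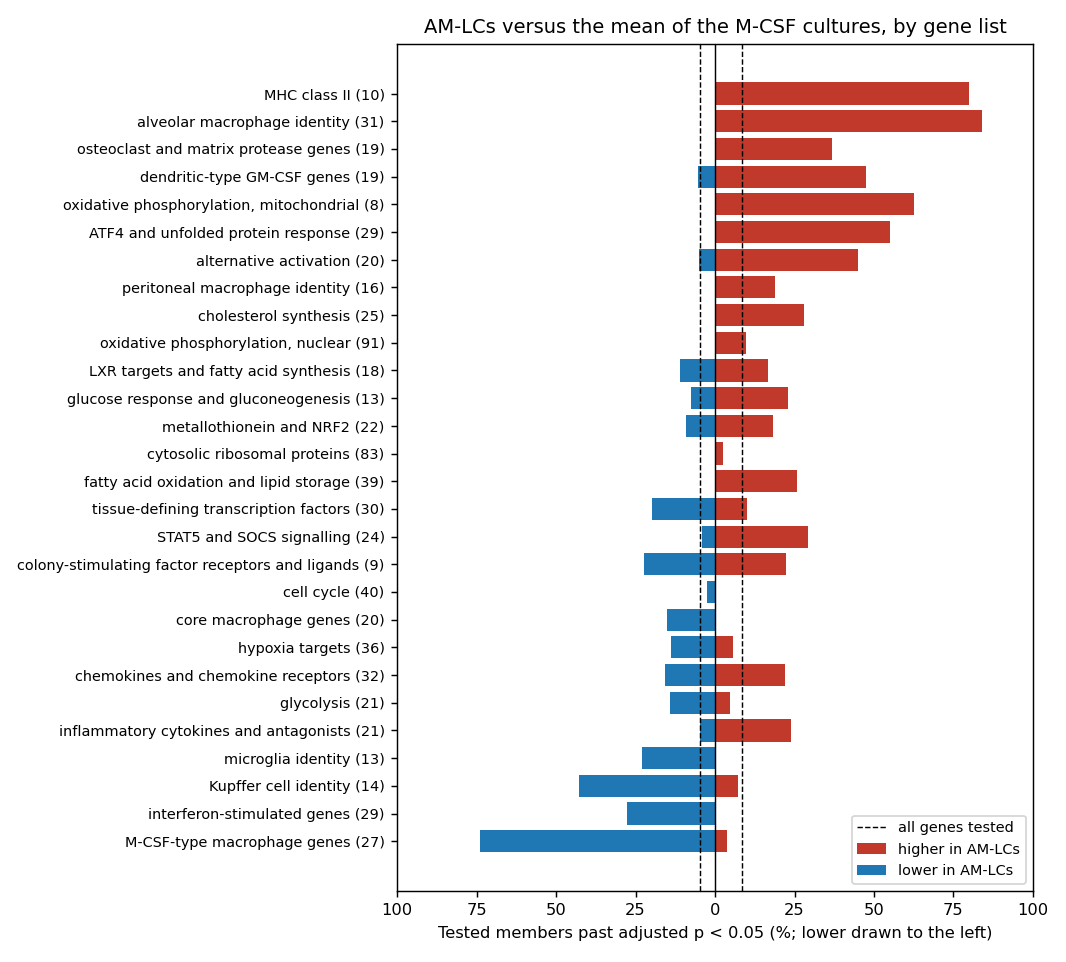
Share of the tested members of each gene list (number tested in parentheses) that passed adjusted p < 0.05 in AM-LCs versus the mean of the M-CSF cultures, higher to the right and lower to the left, in percent. Dashed lines mark the same shares over all 14813 genes (8.38% and 4.71%). The alveolar identity and MHC class II lists reach furthest to the right and the M-CSF-type list furthest to the left.

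Genes that mark alveolar macrophages were higher in AM-LCs as a group. Of 34 listed genes 31 were tested, 26 were higher and 0 lower, with a median log2 fold change of 2.84. The 3 defining markers passed: Car4, a membrane-bound carbonic anhydrase, Siglecf, a sialic acid-binding lectin, and Csf2rb. Car4 (chr11:84957786-84966044, plus strand in GRCm38) was at 38.8, 304 and 102 CPM in the AM-LC libraries and at 0 to 0.579 CPM, median 0 CPM, in the M-CSF libraries. Siglecf (chr7:43351341-43359531, plus strand) was at 75.1, 284 and 139.5 CPM against 0.344 to 21.4 CPM, median 4.09 CPM. Csf2rb (chr15:78325752-78353847, plus strand) was at 959, 691 and 827 CPM against 87.1 to 561 CPM, median 199.7 CPM. For these 3 genes every AM-LC library lay above every M-CSF library, by a wide gap for Car4 and a narrow one for Csf2rb, which all cultures transcribed. The tests gave log2 fold changes of 10.18 ± 1.09, adjusted p = 0.000423, for Car4, 5.09 ± 0.61, adjusted p = 0.000714, for Siglecf and 1.96 ± 0.32, adjusted p = 0.00412, for Csf2rb, the last a 3.88-fold difference. Among the M-CSF cultures Siglecf was highest in PM-LCs, at 18.9 ± 2.94 CPM (SD, n = 3), and the AM-LC comparison with PM-LCs alone did not pass (log2 fold change 3.14, adjusted p = 0.0637).

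Several further alveolar genes had few reads outside AM-LCs. Chil3, a secreted chitinase-like lectin, was at 2122, 7944 and 2297 CPM against 0.0223 to 4.95 CPM, median 0.251 CPM (log2 fold change 13.30 ± 1.02, adjusted p = 7.49e-05). Plet1, a surface protein, was at 558, 896 and 475 CPM against 0 to 0.921 CPM, median 0 CPM (log2 fold change 14.003 ± 1.13, adjusted p = 0.000266). The eosinophil-associated ribonucleases Ear2 (log2 fold change 11.65 ± 0.76, adjusted p = 3.03e-05) and Ear1 (log2 fold change 8.83 ± 1.20, adjusted p = 0.0028) are near-identical copies whose reads could be split between them. Plet1 had no read in KC-LCs and Ear1 none in MG-LCs, and where a culture had no read (also for Ccl17, Ccl22 and Ccr7) the fitted change depends on the prior count and is no bound. Cidec, a lipid droplet protein, and Fabp1, a fatty acid-binding protein, had 178 and 81 reads in the AM-LC libraries and 0 in the M-CSF libraries, which makes them at least 239-fold and 109-fold higher in reads per library size, against a limit of 3 reads over the 9 libraries together. Genes with some transcription in every culture were Itgax, the integrin CD11c, at 967, 1489.5 and 1183 CPM against 4.65 to 474 CPM, median 80.1 CPM (log2 fold change 3.52 ± 0.57, adjusted p = 0.00369), the scavenger receptors Marco (log2 fold change 6.44 ± 0.91, adjusted p = 0.00166) and Olr1 (log2 fold change 8.69 ± 1.05, adjusted p = 0.000776), the lipid transporter Abcg1 (log2 fold change 1.68 ± 0.28, adjusted p = 0.00448), the transcription factor Bhlhe40 (log2 fold change 1.49 ± 0.30, adjusted p = 0.0094) and the proton pump subunit Atp6v0d2 (log2 fold change 2.78 ± 0.53, adjusted p = 0.00791). By culture, 17 members were higher than in MG-LCs, 19 than in KC-LCs and 6 than in PM-LCs, beside 4.95%, 4.72% and 2.82% of all genes; the difference between these counts was not tested. Leaving out 1 library removed the calls of Atp6v0d2 (without AM-LC 2, adjusted p up to 0.0545), Cidec (without AM-LC 2, adjusted p up to 0.0583), Fabp1 (without AM-LC 2 or 3, adjusted p up to 0.0595) and Bhlhe40 (without AM-LC 1, adjusted p up to 0.0524). With the 9 M-CSF libraries taken as 1 group, 3 of these genes did not pass: Olr1 (adjusted p = 0.0638), Atp6v0d2 (adjusted p = 0.23) and Bhlhe40 (adjusted p = 0.15).

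The 5 tested members that did not pass were the transcription factors Pparg and Cebpa, the fatty acid-binding proteins Fabp4 and Fabp5, and the lipase Lpl. Pparg, the factor through which GM-CSF sets the alveolar programme, was at 62.2, 106 and 98.3 CPM against 3.85 to 93.3 CPM, median 44.5 CPM (log2 fold change 1.05 ± 0.48, adjusted p = 0.178, 95% interval 0.11 to 1.99). Fabp4 was at 289.7, 675 and 479 CPM against 38.2 to 1375 CPM, median 411 CPM (log2 fold change 0.24 ± 0.63, adjusted p = 0.847), and its mean was 1062 ± 399 CPM (SD, n = 3) in PM-LCs. Lpl was at 3769.7, 4976 and 5194 CPM against 293 to 9111 CPM, median 4296 CPM (log2 fold change -0.07 ± 0.65, adjusted p = 0.958). The ranges of the groups overlapped in all 3. The 95% intervals of the log2 fold changes ran from -0.99 to 1.48 for Fabp4 and from -1.35 to 1.20 for Lpl, so that either sign remained possible. The intervals of these 3 genes use the multiplier 1.96 of a normal distribution, so they are narrower than the test implies.

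**Figure D3:**
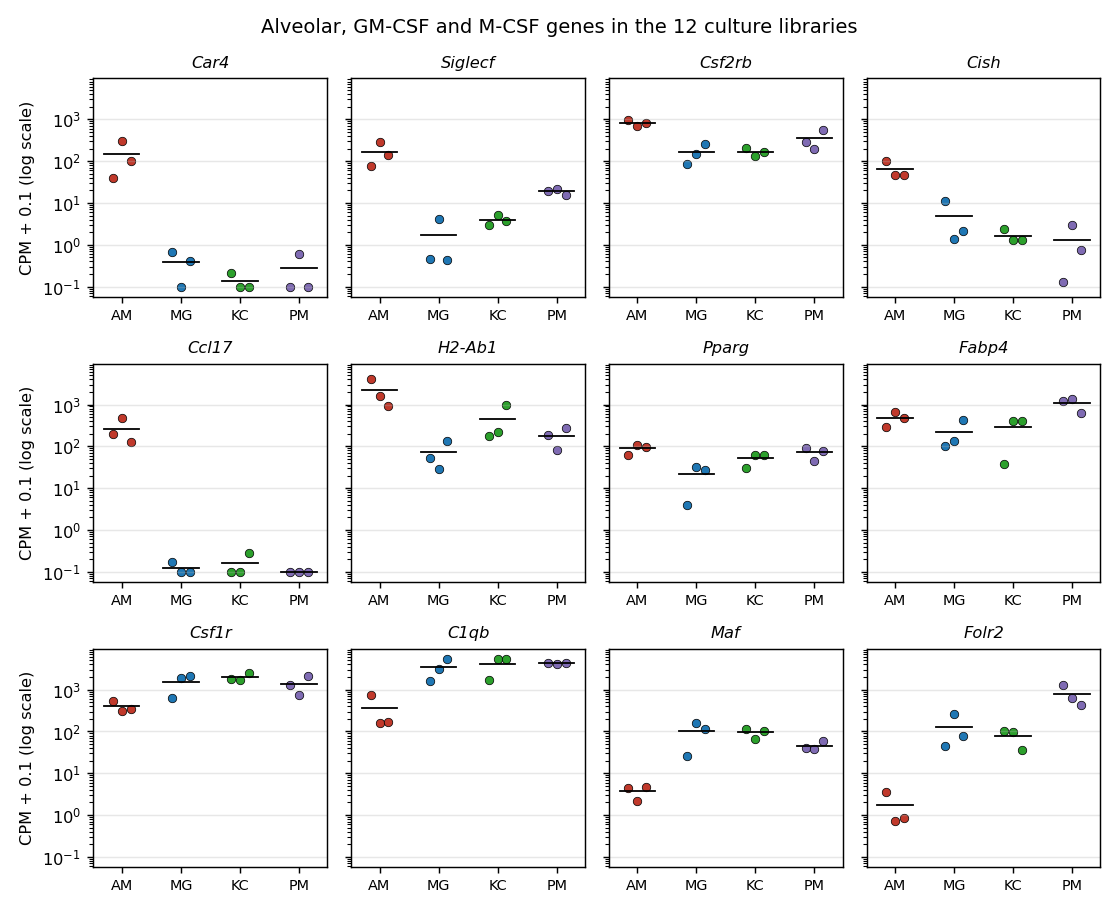
CPM + 0.1 (log axis) of 12 genes in each culture library, 3 points per culture with a bar at their mean. The 3 AM-LC points lie above all others for Car4, Siglecf, Csf2rb, Cish and Ccl17, overlap with them for Pparg and Fabp4, and lie below all others for Csf1r, C1qb, Maf and Folr2.

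Receptors for colony-stimulating factors differed in both directions. Of 9 tested genes 2 were higher, Csf2rb and the ligand Csf1, and 2 were lower, Csf1r and the granulocyte colony-stimulating factor receptor Csf3r. Csf1r was at 548, 309.7 and 344 CPM in AM-LCs against 616 to 2481 CPM, median 1847 CPM, a 4.08-fold lower level without overlap (log2 fold change -2.03 ± 0.45, adjusted p = 0.0157). Csf3r was at 1.74, 0 and 0.519 CPM against 19.4 to 149 CPM, median 67.5 CPM (log2 fold change -6.50 ± 1.21, adjusted p = 0.00691). The alpha chain Csf2ra, at 376, 389 and 312 CPM, overlapped with the M-CSF libraries (46.8 to 396 CPM, median 177 CPM) and did not pass (log2 fold change 1.04 ± 0.32, adjusted p = 0.0575). It passed in 7 of 23 alternatives, among them without MG-LC 1, MG-LC 2 or PM-LC 3, by DESeq2 and with all 24 libraries in 1 fit, at an adjusted p down to 0.00946. Nor did Csf2rb2, the interleukin 3-specific copy of the beta chain, at 212, 96.8 and 187 CPM against 67.8 to 501 CPM, median 169.5 CPM (log2 fold change -0.14 ± 0.42, adjusted p = 0.871). Csf2rb and Csf2rb2 are near-identical, so their separate levels are uncertain. Csf1 was at 181, 68.3 and 336 CPM against 1.98 to 138 CPM, median 12.3 CPM (log2 fold change 3.12 ± 0.84, adjusted p = 0.0349), with overlap. With 1 library fewer the test was not passed by Csf1r (without AM-LC 2 or 3, adjusted p up to 0.10005) and Csf1 (without AM-LC 1, 2 or 3, KC-LC 1, 2 or 3, MG-LC 2 or 3, PM-LC 3, adjusted p up to 0.157). By limma-voom Csf3r did not pass (adjusted p = 0.0833), nor did Csf1 with the M-CSF libraries as 1 group (adjusted p = 0.169).

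Targets and regulators of STAT5 split into a few strong changes and many small ones. Of 24 genes 7 were higher and 1 lower, with a median log2 fold change of -0.01. Cish, a feedback inhibitor that STAT5 induces, was at 99.1, 47.7 and 46.1 CPM in AM-LCs against 0.0288 to 10.9 CPM, median 1.25 CPM (log2 fold change 4.96 ± 0.80, adjusted p = 0.00359). Socs2, of the same inhibitor family, was at 62.2, 32.4 and 25.4 CPM against 0.0865 to 19 CPM, median 1.01 CPM (log2 fold change 4.28 ± 0.88, adjusted p = 0.0109). Bcl2a1a and Bcl2a1d, survival factors of the Bcl2 family and near-identical copies, had larger levels in AM-LCs (Bcl2a1a log2 fold change 6.02 ± 0.50, adjusted p = 9.96e-05, and Bcl2a1d log2 fold change 3.18 ± 0.37, adjusted p = 0.000649). These 4 genes did not overlap between AM-LC and M-CSF libraries. The other 3 higher genes were Socs1, Jak2 and Bcl2 and the lower one was Spred1, an inhibitor of Ras signalling, with log2 fold changes of 1.82 ± 0.47, adjusted p = 0.0292, for Socs1, 1.16 ± 0.30, adjusted p = 0.0318, for Jak2 and -1.25 ± 0.30, adjusted p = 0.0225, for Spred1. The following calls depended on 1 library: Socs2 (without AM-LC 1, adjusted p up to 0.0514), Socs1 (without AM-LC 1, 2 or 3, KC-LC 1 or 3, PM-LC 1 or 3, adjusted p up to 0.155), Jak2 (without AM-LC 1 or 3, KC-LC 1 or 2, PM-LC 1, adjusted p up to 0.229) and Spred1 (without AM-LC 2 or 3, adjusted p up to 0.136). Socs2 also did not pass with the M-CSF libraries as 1 group (adjusted p = 0.0666), Socs1 and Spred1 against KC- and PM-LCs only (adjusted p = 0.0509 and 0.0541) and Jak2 without the 3 libraries richest in fibroblast and mesothelium RNA (adjusted p = 0.051).

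The Cish promoter is shown because Cish was the STAT5 target with the largest change outside the Bcl2a1 copies and its start site carries the palindromic STAT5 motif. The stretch is chr9:107296619-107296678, plus strand, GRCm38.p6, from RefSeq, and runs from 40 bases before to 20 bases after the annotated start. Capitals mark the 2 matches to TTCNNNGAA, which begin at positions 1 and 12 counted from the start. The motif reads the same on both strands.
Cish: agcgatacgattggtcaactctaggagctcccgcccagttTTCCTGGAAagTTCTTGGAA
Of all 32851 promoter windows of 300 bases (250 before and 50 after a start), 2726 held at least 1 match (8.30%). Of the 24 list genes 19 had a window, and 2 held the motif. Of the 7 higher genes 6 had a window, and Cish alone among them had a match. A match is a description of the letters, not a measured site.

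GM-CSF also drives dendritic cell differentiation from precursors, and some of the genes linked to that state were higher in AM-LCs. Of 19 tested genes 9 were higher and 1 lower, with a median log2 fold change of 1.69. The chemokine Ccl17 was at 199, 465 and 128 CPM in AM-LCs and at 0 to 0.188 CPM, median 0 CPM, elsewhere (log2 fold change 13.84 ± 0.88, adjusted p = 9.96e-05). Its neighbour Ccl22, which binds the same receptor, was at 50.7, 35.8 and 29.1 CPM against 0 to 0.439 CPM, median 0 CPM (log2 fold change 9.95 ± 1.21, adjusted p = 0.00163). Ccr7, the receptor that guides dendritic cells to lymph nodes, was at 47.8, 28.1 and 18.2 CPM against 0 to 0.923 CPM, median 0 CPM (log2 fold change 9.25 ± 1.29, adjusted p = 0.00313). All 3 genes were at 0 in at least 6 of the 9 M-CSF libraries. The lectin Mgl2 (7.24 ± 0.80, adjusted p = 0.000481), the integrin CD103 encoded by Itgae (7.83 ± 1.02, adjusted p = 0.00119) and the transcription factor Irf4 (4.04 ± 1.04, adjusted p = 0.0295) had log2 fold changes in the same direction. Flt3, the receptor that conventional dendritic cells depend on, had 0 reads in the AM-LC libraries and 20 in the M-CSF libraries and was not tested. Cd83, an activation marker of dendritic cells, was lower, at 38.1, 39.9 and 15.5 CPM against 54.1 to 628 CPM, median 303 CPM (log2 fold change -3.26 ± 0.73, adjusted p = 0.0167). Calls lost with 1 library were Irf4 (without AM-LC 1, 2 or 3, KC-LC 1, 2 or 3, MG-LC 3, PM-LC 3, adjusted p up to 0.149) and Cd83 (without AM-LC 1, 2 or 3, adjusted p up to 0.0721). Irf4 did not pass against KC- and PM-LCs only either (adjusted p = 0.0756).

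MHC class II genes, whose products present peptides to CD4+ T cells, were higher in AM-LCs. Of 10 tested genes 8 were higher and 0 lower, with a median log2 fold change of 3.47. H2-Ab1, a classical beta chain, was at 3999, 1585 and 909 CPM in AM-LCs against 29.3 to 947 CPM, median 177 CPM (log2 fold change 3.59 ± 0.59, adjusted p = 0.00395). Its partner chain H2-Aa was at 1878, 889 and 518 CPM against 11.4 to 588 CPM, median 128 CPM (log2 fold change 3.57 ± 0.54, adjusted p = 0.00237). The peptide exchange factor subunit H2-DMb2 was at 149, 24.4 and 42.6 CPM against 0.377 to 5.97 CPM, median 2.41 CPM (log2 fold change 4.93 ± 0.58, adjusted p = 0.000646). AM-LC 1 was highest for each of these genes, and the lowest AM-LC library overlapped with the highest M-CSF library, KC-LC 3, for H2-Ab1 and H2-Aa. Further members were the invariant chain Cd74 (2.91 ± 0.62, adjusted p = 0.0124), the master regulator Ciita (3.36 ± 0.67, adjusted p = 0.00978) and H2-DMa (2.34 ± 0.28, adjusted p = 0.000649). All 8 were higher than in MG-LCs, 3 than in KC-LCs and 4 than in PM-LCs, beside 4.95%, 4.72% and 2.82% of all genes. Leaving out 1 library removed the calls of Cd74 (without AM-LC 1, adjusted p up to 0.0879) and Ciita (without AM-LC 1, adjusted p up to 0.0698). As 1 group of 9 M-CSF libraries the comparison did not pass for H2-Aa (adjusted p = 0.0601), Cd74 (adjusted p = 0.103) and Ciita (adjusted p = 0.0798), and against KC- and PM-LCs only it did not pass for Cd74 (adjusted p = 0.0943) and Ciita (adjusted p = 0.0748).

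Genes that M-CSF-dependent macrophages express were lower in AM-LCs. Of 27 tested genes 20 were lower and 1, Lyve1, was higher at 1.56 CPM or less; the median log2 fold change was -3.03. The complement genes C1qa, C1qb and C1qc, which encode the 3 chains of 1 protein complex, were all lower. C1qb was at 762, 157 and 166 CPM in AM-LCs against 1616 to 5522 CPM, median 4224 CPM (log2 fold change -3.43 ± 0.69, adjusted p = 0.0101). C1qc was at 421, 55.8 and 64.1 CPM against 997 to 4221 CPM, median 2475 CPM (log2 fold change -3.79 ± 0.79, adjusted p = 0.0119). C1qa was at 266, 41.2 and 41.4 CPM against 237 to 2336 CPM, median 1119.7 CPM, where AM-LC 1 overlapped with the lowest M-CSF library (log2 fold change -3.25 ± 0.83, adjusted p = 0.0287). AM-LC 1 held the most C1q transcript of the 3 AM-LC libraries.

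Lipoprotein and scavenging genes were lower as well. Folr2, a folate receptor of resident macrophages, was at 3.5, 0.627 and 0.762 CPM against 35.8 to 1276 CPM, median 104 CPM (log2 fold change -6.92 ± 0.99, adjusted p = 0.00185). Apoe, the apolipoprotein through which macrophages export cholesterol, was at 177, 53.7 and 146 CPM against 243 to 29343 CPM, median 12924 CPM (log2 fold change -6.64 ± 1.52, adjusted p = 0.0178), with KC-LC 1 far below the other M-CSF libraries. Gas6, the ligand with which the receptor Mertk recognises dying cells, was at 60.6, 8.32 and 60.7 CPM against 244 to 2112 CPM, median 1328 CPM (log2 fold change -4.68 ± 0.84, adjusted p = 0.0059), whereas Mertk itself was at 123, 158 and 159 CPM against 31.4 to 179.6 CPM, median 97.4 CPM and did not pass (log2 fold change 0.76 ± 0.51, adjusted p = 0.361). The scavenger receptors Stab1 (-5.47 ± 1.48, adjusted p = 0.0357) and Cd163 (-5.36 ± 1.30, adjusted p = 0.0229), the fractalkine receptor Cx3cr1 (-5.34 ± 1.44, adjusted p = 0.0349) and the F4/80 gene Adgre1 (-1.71 ± 0.43, adjusted p = 0.0254) had negative log2 fold changes that passed. Trem2, a lipid-sensing receptor, did not (log2 fold change -0.99 ± 0.37, adjusted p = 0.105). Of these and the C1q genes, calls lost with 1 library were C1qa (without AM-LC 2 or 3, KC-LC 2 or 3, adjusted p up to 0.131), C1qb (without AM-LC 2, adjusted p up to 0.0592), C1qc (without AM-LC 2, adjusted p up to 0.0583), Apoe (without AM-LC 1, 2 or 3, adjusted p up to 0.092), Stab1 (without AM-LC 2 or 3, KC-LC 1, 2 or 3, MG-LC 3, PM-LC 1 or 3, adjusted p up to 0.106), Cd163 (without AM-LC 1, 2 or 3, adjusted p up to 0.0948), Cx3cr1 (without AM-LC 2 or 3, KC-LC 1, 2 or 3, MG-LC 3, adjusted p up to 0.152) and Adgre1 (without AM-LC 2 or 3, adjusted p up to 0.143). Limma-voom did not call Cd163 (adjusted p = 0.107) and Cx3cr1 (adjusted p = 0.175). Stab1 was not called against KC- and PM-LCs only (adjusted p = 0.0556) and C1qa not without the 3 libraries richest in fibroblast and mesothelium RNA (adjusted p = 0.0678). Trem2 passed in 4 of 23 alternatives, among them without MG-LC 1 (adjusted p = 0.00315).

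Among 30 tissue-defining transcription factors 3 were higher (Irf4, Bhlhe40 and Bhlhe41) and 6 lower. The share higher, 10%, was near the 8.38% of all genes, and the share lower was 20% beside 4.71%. Maf, which helps to hold resident macrophages in a non-dividing state, was at 4.43, 2.02 and 4.54 CPM against 25.2 to 163 CPM, median 65.5 CPM (log2 fold change -4.38 ± 0.60, adjusted p = 0.00153). Its libraries did not overlap between the groups. Of the lower factors, 4 more were Mef2c, a factor of microglia and Kupffer cells (-3.62 ± 0.74, adjusted p = 0.0107), Smad3, a transducer of TGF-beta (-3.58 ± 0.74, adjusted p = 0.0113), Klf2 (-2.95 ± 0.56, adjusted p = 0.00785) and Id3, which Kupffer cells require (-2.82 ± 0.68, adjusted p = 0.0227). Of 20 core macrophage genes 0 were higher and 3 were lower (Csf1r, Adgre1 and Fcgr1). These shares were 0% and 15%, beside 8.38% and 4.71% of all genes. Spi1, the factor PU.1, was at 362, 377 and 307 CPM against 107 to 507 CPM, median 358 CPM (log2 fold change 0.05 ± 0.29, adjusted p = 0.935). The integrin gene Itgam (log2 fold change -0.17 ± 0.40, adjusted p = 0.83), Cd68 (log2 fold change -0.70 ± 0.35, adjusted p = 0.216) and lysozyme gene Lyz2 (log2 fold change 1.10 ± 0.35, adjusted p = 0.0616) did not pass either. With 1 library fewer the test was not passed by Mef2c (without AM-LC 2 or 3, adjusted p up to 0.0697) and Id3 (without AM-LC 1 or 2, adjusted p up to 0.114). Smad3 did not pass by limma-voom (adjusted p = 0.0923). Lyz2 passed in 6 of 23 alternatives, DESeq2 and limma-voom included, with an adjusted p down to 0.00369, and Cd68 without MG-LC 1 (adjusted p = 0.00928).

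Markers of the other 3 tissues were read in the same contrast. Of 13 tested microglia genes 3 were lower and 0 higher, and 5 were lower against MG-LCs alone, beside 3.64% of all genes. Without the 3 libraries richest in fibroblast and mesothelium RNA 5 of 13 were lower than the mean. Of 14 Kupffer cell genes 6 were lower, among them Cd5l, a secreted scavenger protein (log2 fold change -5.21 ± 1.32, adjusted p = 0.0273), and the iron exporter Slc40a1 (log2 fold change -4.07 ± 0.85, adjusted p = 0.0121), while Clec1b, a lectin receptor, was higher at 25.9, 122 and 41.8 CPM against 0.241 to 11.7 CPM, median 1.24 CPM (log2 fold change 5.25 ± 0.52, adjusted p = 0.000279). Of 16 peritoneal macrophage genes 3 were higher and 0 lower. The coagulation factor gene F10 was 1 of them (log2 fold change 3.63 ± 0.66, adjusted p = 0.00644), and its level in PM-LCs, 101 ± 29.1 CPM (SD, n = 3), stood beside 79.8 ± 35.7 CPM in AM-LCs (log2 fold change against PM-LCs alone -0.33, adjusted p = 0.873). The following calls depended on 1 library: Cd5l (without AM-LC 2 or 3, adjusted p up to 0.108) and Slc40a1 (without AM-LC 2 or 3, adjusted p up to 0.0754). The call of F10 was lost with the 9 M-CSF libraries as 1 group (adjusted p = 0.691) and against KC- and PM-LCs only (adjusted p = 0.0826), as was that of Cd5l (adjusted p = 0.0577 and 0.0553), which was also lost without the 3 libraries richest in fibroblast and mesothelium RNA (adjusted p = 0.0502).

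Among genes induced by low oxygen, the share lower in AM-LCs was above that of all genes and the share higher was below it. Of 36 targets of hypoxia-inducible factors 5 were lower and 2 higher in AM-LCs, kept at atmospheric oxygen. These were 13.9% and 5.56%, beside 4.71% and 8.38% of all genes, a difference that was not tested. The other 29 did not pass, with a list median of -0.32. Ankrd37 (chr8:45996902-46005707, minus strand), an ankyrin repeat protein used as a hypoxia marker, was at 1.41, 1.18 and 2.63 CPM in AM-LCs against 16.5 to 56.7 CPM, median 30.5 CPM, a 18.5-fold lower level. Egln3, the prolyl hydroxylase PHD3, was at 2.25, 2.26 and 11.1 CPM against 11.8 to 152 CPM, median 23.9 CPM. Vegfa, the vascular growth factor, was at 48.6, 30.8 and 103 CPM against 118 to 877 CPM, median 333 CPM. In all 3 genes each AM-LC library lay below each M-CSF library, though AM-LC 3 came close to it for Egln3 and Vegfa. The tests gave log2 fold changes of -4.21 ± 0.37, adjusted p = 0.000142, for Ankrd37, -2.77 ± 0.72, adjusted p = 0.0303, for Egln3 and -2.61 ± 0.62, adjusted p = 0.0213, for Vegfa. Pdk1, a kinase that keeps pyruvate out of mitochondria, was at 31.8, 31.7 and 42.3 CPM against 55.5 to 248 CPM, median 134 CPM (log2 fold change -1.78 ± 0.25, adjusted p = 0.0016). Pfkfb3, which makes an activator of glycolysis, overlapped between groups (log2 fold change -1.51 ± 0.44, adjusted p = 0.0446).

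Other targets known for their response to low oxygen did not pass or were higher. Slc2a1, the glucose transporter GLUT1, was at 211, 201 and 323 CPM against 95.1 to 429.5 CPM, median 179 CPM (log2 fold change 0.44 ± 0.32, adjusted p = 0.397). Bnip3, a mitophagy receptor, was at 12.1, 20.8 and 44.9 CPM against 30.9 to 229 CPM, median 51.4 CPM (log2 fold change -1.49 ± 0.57, adjusted p = 0.113), and of the single cultures only the MG-LC comparison passed (log2 fold change -2.48, adjusted p = 0.0458). The thiol oxidase gene Ero1l (log2 fold change 1.65 ± 0.39, adjusted p = 0.0197) and Bhlhe40 were higher. By culture, 10 of the 36 targets were lower than in MG-LCs, 2 than in KC-LCs and 2 than in PM-LCs, beside 3.64%, 2.92% and 2.48% of all genes. The difference between these counts was not tested. Calls lost with 1 library were Egln3 (without AM-LC 1 or 2, adjusted p up to 0.122), Vegfa (without AM-LC 1 or 2, adjusted p up to 0.0926), Pfkfb3 (without AM-LC 1, 2 or 3, KC-LC 2 or 3, MG-LC 3, PM-LC 1 or 3, adjusted p up to 0.162) and Ero1l (without AM-LC 1, 2 or 3, adjusted p up to 0.0828). Limma-voom, KC- and PM-LCs only and the M-CSF libraries as 1 group each removed the calls of Egln3 (adjusted p = 0.0654, 0.0876 and 0.0666) and Pfkfb3 (adjusted p = 0.114, 0.179 and 0.135), and the last also removed that of Ero1l (adjusted p = 0.0769). Pfkfb3 was not called without the 3 libraries richest in fibroblast and mesothelium RNA (adjusted p = 0.103). Bnip3 passed by DESeq2 (adjusted p = 0.0256) and with all 24 libraries in 1 fit (adjusted p = 0.0209).

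Promoter stretches of 3 of the lower genes are shown because they hold ACGTG, the core of the hypoxia response element, on either strand, which is also contained in the E-box CACGTG. Capitals mark each match. The Ankrd37 stretch is chr8:45999831-45999890, minus strand, that of Egln3 is chr12:54204065-54204124, minus strand, and that of Pfkfb3 is chr2:11553954-11554013, minus strand, all in GRCm38.p6 from RefSeq, with the match shown beginning 6, 229 and 60 bases before the start. Ankrd37 has a further match 241 bases before its start, outside the stretch. A second start of Pfkfb3 has a window with the E-box CACGTG, which counts as 2 matches. Vegfa, whose stretch is not shown, has 1 match.
Ankrd37: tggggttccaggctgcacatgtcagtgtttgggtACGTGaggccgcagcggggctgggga
Egln3: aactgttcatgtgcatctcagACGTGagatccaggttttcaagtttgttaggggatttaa
Pfkfb3: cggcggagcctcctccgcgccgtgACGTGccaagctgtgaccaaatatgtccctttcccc
The motif was in 6447 of all 32851 windows of 300 bases (19.6%) and in 24 of the 40 windows of the hypoxia list, which was put together from known targets. Of its 36 genes 30 had a window and 22 held the motif. Of the 5 lower genes 4 held it, and no match was found in the window of Pdk1.

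**Figure D4:**
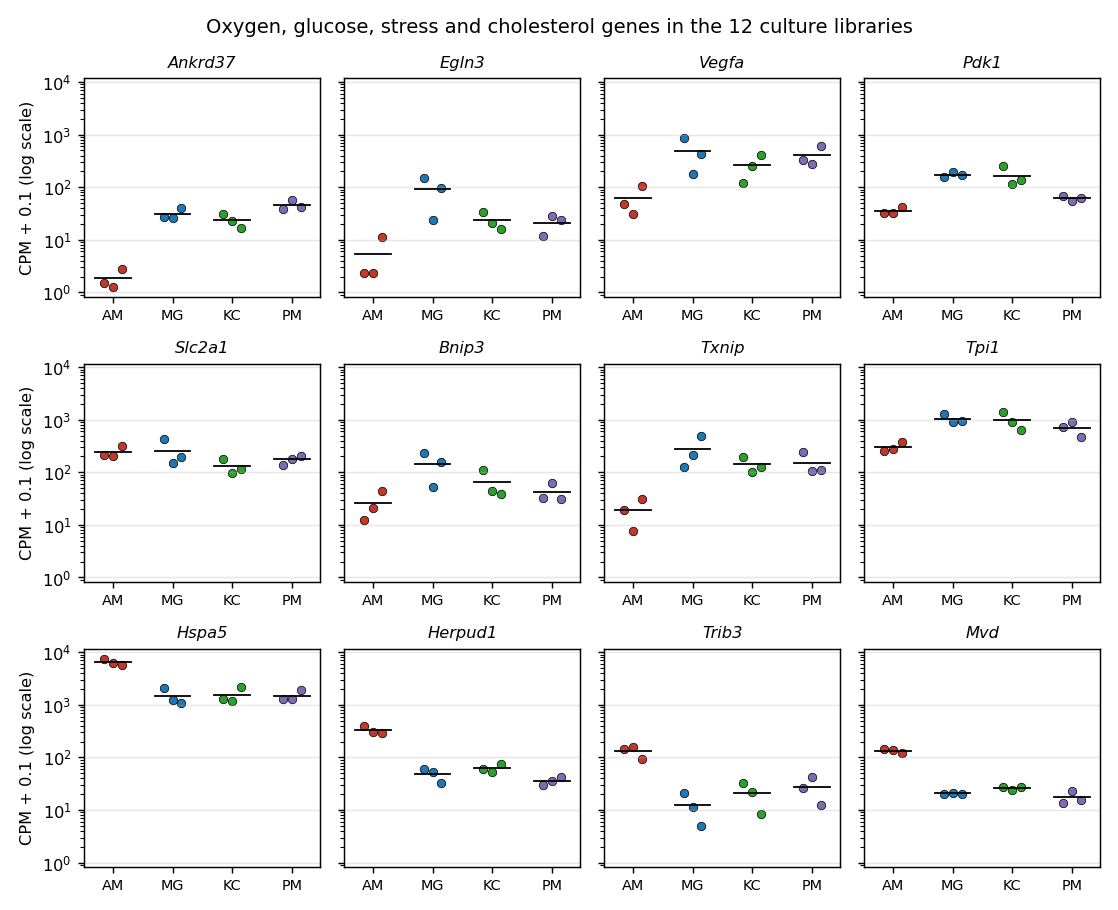
CPM + 0.1 (log axis) of 12 genes in each culture library, 3 points per culture with a bar at their mean. AM-LC points lie below all others for Ankrd37, Egln3, Vegfa, Pdk1, Txnip and Tpi1, overlap with them for Slc2a1 and Bnip3, and lie above all others for Hspa5, Herpud1, Trib3 and Mvd.

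Txnip, the arrestin-family inhibitor of glucose uptake whose transcription follows glucose, was lower in AM-LCs, which had no glucose added. Txnip (chr3:96557957-96561883, plus strand) was at 18.7, 7.66 and 31 CPM against 103 to 492 CPM, median 128 CPM, a 9.52-fold lower level without overlap (log2 fold change -3.25 ± 0.60, adjusted p = 0.00674). It was lower than in each culture, with log2 fold changes of -3.85 against MG-LCs (adjusted p = 0.00981) and -2.90 against KC-LCs (adjusted p = 0.0245), and lower than in PM-LCs with an adjusted p of 0.0266. Its list of 13 tested glucose response and gluconeogenesis genes had 1 lower and 3 higher members. Pcx, the pyruvate carboxylase that starts gluconeogenesis (log2 fold change 1.69 ± 0.37, adjusted p = 0.0152), and Mlx, the partner of MondoA (log2 fold change 1.01 ± 0.16, adjusted p = 0.0029), were 2 of the higher genes, with Ppargc1b. Of 21 glycolysis genes 3 were lower and 1 higher, with a median log2 fold change of -0.42. Tpi1, the triose phosphate isomerase, was at 252, 275 and 373 CPM against 476 to 1431 CPM, median 897 CPM (log2 fold change -1.58 ± 0.31, adjusted p = 0.00854). The phosphofructokinase subunits Pfkl (-1.17 ± 0.32, adjusted p = 0.0367) and Pfkm (-1.48 ± 0.44, adjusted p = 0.049) were the other lower genes, and the lactate and pyruvate carrier Slc16a1 was the higher one (1.47 ± 0.34, adjusted p = 0.018). Ldha, the lactate dehydrogenase subunit, did not pass (log2 fold change -0.60 ± 0.41, adjusted p = 0.376). Leaving out 1 library removed the calls of Pcx (without AM-LC 2 or 3, adjusted p up to 0.0831), Tpi1 (without AM-LC 1, adjusted p up to 0.0503), Pfkl (without AM-LC 1 or 2, KC-LC 1 or 3, MG-LC 3, PM-LC 2 or 3, adjusted p up to 0.154), Pfkm (without AM-LC 1 or 2, KC-LC 1, 2 or 3, MG-LC 2 or 3, PM-LC 1 or 3, adjusted p up to 0.17) and Slc16a1 (without AM-LC 2 or 3, adjusted p up to 0.0834). With the M-CSF libraries as 1 group no call was made for Pcx (adjusted p = 0.375), Slc16a1 (adjusted p = 0.09), Pfkl (adjusted p = 0.0745) and Pfkm (adjusted p = 0.0975), and against KC- and PM-LCs only none for Pfkl (adjusted p = 0.115) and Pfkm (adjusted p = 0.147). Pfkm also missed the threshold with RLE size factors (adjusted p = 0.0508) and without a filter on low counts (adjusted p = 0.0529).

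The count of respiratory chain genes depended on the libraries used. Of 91 tested nuclear genes of oxidative phosphorylation 9 were higher and 0 lower, with a median log2 fold change of 0.37, a share of 9.89% against 8.38% of all genes, and in 16 every AM-LC library lay above every M-CSF library, as in 7.83% of all genes. Without the 3 libraries richest in fibroblast and mesothelium RNA the count was 20 of 90, beside 1436 of 14835 genes in all. Of 13 genes on the mitochondrial genome 8 were tested and 5 were higher, but only 2 without those 3 libraries. The other 5 of the 13, which every cell uses, were listed at 0 in all libraries, M-CSF cultures included, so these counts are uncertain. Ribosomal protein genes (2 of 83 higher) and cell cycle genes (1 of 40 lower, 0 higher) had few calls, with medians of 0.25 and -0.15.

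Genes of the unfolded protein response and of ATF4, which is translated when amino acids are short or the endoplasmic reticulum is stressed, were higher in AM-LCs. Of 29 genes 16 were higher and 0 lower, with a median log2 fold change of 1.46. In 15 every AM-LC library lay above every M-CSF library, as in 7.83% of all genes. Hspa5, the chaperone BiP, was at 7577, 6127 and 5821 CPM against 1071 to 2209 CPM, median 1302 CPM, a 4.33-fold difference (log2 fold change 2.11 ± 0.26, adjusted p = 0.000775). Herpud1, which helps remove misfolded proteins, was at 391, 306 and 296 CPM against 30.2 to 75 CPM, median 52.2 CPM (log2 fold change 2.79 ± 0.19, adjusted p = 3.56e-05). The chaperone partner Sdf2l1 was at 948, 910.0 and 622 CPM against 102 to 249.6 CPM, median 167 CPM (log2 fold change 2.32 ± 0.19, adjusted p = 9.96e-05). In each of these genes the lowest AM-LC library stood above the highest M-CSF library. The disulfide isomerase Pdia4 had a log2 fold change of 2.80 ± 0.33, adjusted p = 0.000649. On the ATF4 side were the pseudokinase Trib3, at 146, 155 and 94.1 CPM against 4.94 to 41.9 CPM, median 20.7 CPM (log2 fold change 2.79 ± 0.44, adjusted p = 0.00326), the cystine carrier Slc7a11 (3.06 ± 0.72, adjusted p = 0.0198) and the serine synthesis enzyme Phgdh (2.44 ± 0.64, adjusted p = 0.0316). Transcript of Atf4 itself (log2 fold change 0.31 ± 0.23, adjusted p = 0.414) and of Ddit3, the factor CHOP (log2 fold change 1.20 ± 0.47, adjusted p = 0.124), did not pass. Without the 3 libraries richest in fibroblast and mesothelium RNA 22 of 29 were higher and 0 lower. With 1 library fewer the test was not passed by Slc7a11 (without AM-LC 1 or 2, adjusted p up to 0.0895) and Phgdh (without AM-LC 1, 2 or 3, KC-LC 2 or 3, MG-LC 2, PM-LC 1, adjusted p up to 0.126). Of 22 metallothionein and NRF2 target genes 4 were higher and 2 lower. Ddit3 passed with all 24 libraries in 1 fit (adjusted p = 0.0276).

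Some lipid genes were higher in AM-LCs and few were lower. Of 39 tested genes of fatty acid oxidation and lipid storage 10 were higher and 0 lower, with a median log2 fold change of 0.25, and 6 of 38 were higher without the 3 libraries richest in fibroblast and mesothelium RNA. Mgll, which releases fatty acids from monoglycerides, was at 343, 572 and 435 CPM against 0.263 to 87.8 CPM, median 14.5 CPM (log2 fold change 4.65 ± 0.73, adjusted p = 0.00315). The oxidation enzyme Eci2 had a smaller log2 fold change (1.06 ± 0.16, adjusted p = 0.00246). Of 25 cholesterol synthesis genes 7 were higher and 0 lower, with a median of 0.63. Mvd, the mevalonate decarboxylase, was at 144, 139 and 123 CPM against 13.3 to 27.5 CPM, median 21.2 CPM without overlap (log2 fold change 2.69 ± 0.15, adjusted p = 9.58e-06). The synthesis enzymes Fdps (1.68 ± 0.33, adjusted p = 0.00937) and Dhcr7 (1.36 ± 0.21, adjusted p = 0.00313) had log2 fold changes that passed as well. Among 18 targets of the sterol receptor LXR and fatty acid synthesis genes 3 were higher and 2 lower, the lower ones being Apoe and the phospholipid transfer protein Pltp, at 33.9, 40 and 83.3 CPM against 304 to 1009 CPM, median 469 CPM (log2 fold change -3.42 ± 0.44, adjusted p = 0.0011). The call of Fdps was lost without AM-LC 2 (adjusted p = 0.050012).

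Secreted signals changed in both directions. Of 32 chemokine and chemokine receptor genes 7 were higher and 5 lower (21.9% and 15.6%, beside 8.38% and 4.71% of all genes). Without the 3 libraries richest in fibroblast and mesothelium RNA 5 were higher and 3 lower. Beside Ccl17, Ccl22 and Ccr7, the chemokine Ccl6 was at 25254, 46343 and 26640.0 CPM against 138 to 2217 CPM, median 601 CPM (log2 fold change 5.31 ± 0.53, adjusted p = 0.000295). Ccr1, a receptor for several inflammatory chemokines, was also higher (log2 fold change 2.79 ± 0.60, adjusted p = 0.0133). Of 21 cytokine genes 5 were higher (23.8%) and 1 lower (4.76%, near the share of all genes). Spp1, the matrix protein osteopontin, was at 23756, 35881 and 47752 CPM against 2106 to 18680.0 CPM, median 4734 CPM (log2 fold change 2.74 ± 0.39, adjusted p = 0.00185), and the decoy receptor gene Il1r2 had a log2 fold change of 4.91 ± 1.06, adjusted p = 0.0136. Il10, an anti-inflammatory cytokine gene, had 1 read in the 3 AM-LC libraries together and stood at 1.26 to 33.1 CPM, median 6.69 CPM, in the M-CSF libraries (log2 fold change -9.19 ± 1.55, adjusted p = 0.00439). In reads per library size that is a ratio of 853 to 1, with an exact 95% counting interval of 153 to 33707. Of 29 interferon-stimulated genes 8 were lower (27.6%, beside 4.71% of all genes) and 0 higher, with a median log2 fold change of -2.12. Without the 3 libraries richest in fibroblast and mesothelium RNA 4 were lower. Ifit2, an inhibitor of translation, was at 7.36, 15.3 and 3.57 CPM against 30 to 411 CPM, median 129 CPM (log2 fold change -4.01 ± 0.78, adjusted p = 0.00862). Oas2 (-3.19 ± 0.74, adjusted p = 0.0191) and Cxcl10 (-5.73 ± 1.38, adjusted p = 0.0224) passed, while Isg15 (-2.24 ± 0.98, adjusted p = 0.164) and Irf7 (-3.63 ± 1.16, adjusted p = 0.0656) did not. Of 20 alternative activation genes 9 were higher (45%) and 1 lower (5%, near the share of all genes). Of the 9 all but Chil4 and Pdcd1lg2 also stand in other lists given here. Calls lost with 1 library were Ccr1 (without AM-LC 1, adjusted p up to 0.0579), Il1r2 (without AM-LC 1, adjusted p up to 0.108), Oas2 (without AM-LC 1 or 2, adjusted p up to 0.0853) and Cxcl10 (without AM-LC 1, 2 or 3, adjusted p up to 0.0915). By limma-voom Il10 (adjusted p = 0.135), Oas2 (adjusted p = 0.0856) and Cxcl10 (adjusted p = 0.337) did not pass, Cxcl10 did not pass without the 3 libraries richest in fibroblast and mesothelium RNA (adjusted p = 0.0838), and Ccr1 and Il1r2 did not with the M-CSF libraries as 1 group (adjusted p = 0.194 and 0.0523). Irf7 and Isg15 passed by DESeq2 (adjusted p = 0.000186 and 0.0247) and with all 24 libraries in 1 fit (adjusted p = 0.00605 and 0.0439), and Irf7 also without MG-LC 1 or 3.

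Some proteases known from osteoclasts and matrix turnover were higher in AM-LCs. Of 19 tested osteoclast and matrix protease genes 7 were higher and 0 lower, with a median log2 fold change of 2.14. Without the 3 libraries richest in fibroblast and mesothelium RNA 6 were higher and 3 lower. Ctsk, a collagen-degrading cathepsin, was at 832, 7231 and 3552 CPM against 2.3 to 56.4 CPM, median 12.8 CPM (log2 fold change 7.78 ± 0.74, adjusted p = 0.000209). Acp5, the acid phosphatase TRAP, was at 184, 436 and 234 CPM against 2.26 to 42.1 CPM, median 7.45 CPM (log2 fold change 4.86 ± 0.40, adjusted p = 9.96e-05). Neither gene's libraries overlapped between the groups. The metalloproteinase genes Mmp8 (4.52 ± 0.75, adjusted p = 0.00414) and Mmp19 (3.45 ± 0.44, adjusted p = 0.000964) were higher than in the mean, and Mmp12, the macrophage elastase, was at 24789, 28956 and 21198 CPM against 1696 to 18337 CPM, median 3941 CPM (log2 fold change 2.16 ± 0.27, adjusted p = 0.000806). In PM-LCs alone Mmp12 stood at 17055 ± 1317 CPM (SD, n = 3) and did not differ past the threshold from AM-LCs (adjusted p = 0.402). With the 9 M-CSF libraries as 1 group Mmp12 did not pass (adjusted p = 0.153). Mmp9, the gelatinase B gene, had 1 read in the AM-LC libraries and stood at 0 to 252 CPM, median 0.715 CPM, in the M-CSF libraries, highest in MG-LC 1, with overlap. It did not pass (log2 fold change -8.59 ± 2.93, adjusted p = 0.0803) except without MG-LC 1 (adjusted p = 0.0457) and with all 24 libraries in 1 fit (adjusted p = 0.0284), and it had no read in 2 KC-LC libraries.

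Of the 10 called genes with the largest increase at an average log2 CPM above 5 and without overlap, Plet1, Ccl17, Chil3, Car4, Olr1 and Ctsk have been given, and the other 4 stood in no list. Rbp4, the carrier of retinol, was at 4303, 2164 and 2688 CPM against 0.0223 to 11 CPM, median 0.328 CPM (log2 fold change 11.53 ± 1.25, adjusted p = 0.000433). The zinc transporter Slc39a2 was at 221, 939.6 and 308 CPM against 0 to 1.53 CPM, median 0.68 CPM (log2 fold change 9.49 ± 0.93, adjusted p = 0.000266). Spint1, a protease inhibitor typical of epithelia, was at 576, 292 and 251 CPM against 0.134 to 6.41 CPM, median 1.28 CPM (log2 fold change 7.58 ± 0.94, adjusted p = 0.00089). Spag11b, a beta-defensin-related gene, had 12011 reads in the AM-LC libraries and 4 in the M-CSF libraries. That the AM-LC libraries stood above the highest M-CSF library in all 4 follows from the way these genes were chosen. Of the 10 largest decreases chosen in the same way Folr2, Apoe, Csf3r and Stab1 have been given. The complement receptor C5ar1 was at 36.3, 0.487 and 10.1 CPM against 167 to 1119 CPM, median 847 CPM (log2 fold change -5.67 ± 1.18, adjusted p = 0.0115), and S1pr1, a receptor for sphingosine 1-phosphate, at 7.04, 0 and 3.5 CPM against 117 to 250.0 CPM, median 154 CPM (log2 fold change -5.56 ± 1.06, adjusted p = 0.00779). Tox2 (-6.50 ± 1.61, adjusted p = 0.025), Apoc2 (-5.75 ± 1.08, adjusted p = 0.00711), Pcp4l1 (-5.72 ± 0.92, adjusted p = 0.00342) and Ms4a6b (-5.58 ± 1.003, adjusted p = 0.00598) completed them. Leaving out 1 library removed the calls of Tox2 (without AM-LC 2 or 3, adjusted p up to 0.0935) and C5ar1 (without AM-LC 3, adjusted p up to 0.0561). Limma-voom did not call Tox2 (adjusted p = 0.29), Apoc2 (adjusted p = 0.182), Pcp4l1 (adjusted p = 0.0807) and Ms4a6b (adjusted p = 0.107).

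Markers of other cells that a lung suspension could hold were read beside these results. Of 9 lung epithelium markers 5 were tested and 3 were higher, and their summed level was 56.6 to 198 CPM in AM-LCs against 0.0439 to 24.4 CPM. The adhesion genes Cdh1, at 173, 47.6 and 72.5 CPM (log2 fold change 8.23 ± 1.10, adjusted p = 0.00134), and Epcam, at 24.1, 7.35 and 7.24 CPM (log2 fold change 7.32 ± 1.05, adjusted p = 0.00186), made up most of it, while Sftpc, which defines surfactant-producing cells, had 1 read in AM-LC 3 and none in the other AM-LC libraries. Of 9 neutrophil markers 3 were tested: Csf3r was lower, with the values given among the receptors, and 2 were higher. Ltf, the lactoferrin gene, was at 1.08, 0.696 and 0.346 CPM and had 3 reads in the M-CSF libraries. S100a8 was higher at 30.5, 83.7 and 79.5 CPM (log2 fold change 4.18 ± 0.74, adjusted p = 0.00571), S100a9, its usual partner, was at 0.389, 0.0348 and 0 CPM, and Ly6g was at 0 in every culture library. Of 10 eosinophil, basophil and mast cell markers 3 were tested. Cpa3, a mast cell and basophil protease, was at 82.7, 1.04 and 88.2 CPM against 0 to 0.317 CPM, median 0.0793 CPM (log2 fold change 9.26 ± 1.06, adjusted p = 0.000581), low in AM-LC 2, and Epx and Prg2 had no read in AM-LCs. Endothelium markers (5 of 7 tested) and lymphocyte markers (1 of 10) gave no call, of 7 monocyte markers 5 were tested and Chil3 alone passed, and Ly6c2 was at 0.269, 0 and 0 CPM. The hepatocyte list had too few reads to be tested, and of 6 glia and neuron markers 3 were tested and 1, Mbp, was lower. The part of such cells in the gene groups given here was not tested. Epcam did not pass with the 9 M-CSF libraries as 1 group (adjusted p = 0.0614), nor Cpa3 by limma-voom (adjusted p = 0.0823).

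For 12 companion genes the same contrast was read in cells sorted from tissue without culture (ex vivo, 12 libraries, 3 for each of the 4 tissues), where alveolar macrophages (AMs) were set against the mean of microglia, Kupffer cells and peritoneal macrophages. Antibodies to the Siglecf product were part of the AM sort and antibodies to the Csf1r product part of the peritoneal macrophage sort, so levels of these 2 genes in sorted cells are partly set by the gate. In the sorted contrast 24.7% of 15732 genes were higher and 21.9% lower, and the contrast differed between cultures and sorted cells for 17.1% of 17408 genes. Among the companions 6 differed and 6 did not pass. Levels in this paragraph were scaled over all 24 libraries, and each difference is the log2 fold change in culture minus that in sorted cells. Pparg was at 339.9, 333 and 374 CPM in sorted AMs against 0 to 34.8 CPM, median 1.25 CPM, in the other 9 sorted libraries, with a log2 fold change of 9.54 ± 0.46, adjusted p = 1.69e-07, and its difference was -8.51 ± 0.98, adjusted p = 1.19e-05. Its mean was 29.5 CPM in sorted Kupffer cells and 0 CPM in sorted microglia. Sorted microglia had no read of Pparg or Car4. For both genes the sizes of the sorted contrast and of the difference therefore depend on the prior count and are no bound. Fabp4 was at 153, 109 and 123 CPM in sorted AMs against 0 to 704 CPM, median 3.7 CPM, in the other 9 sorted libraries, with the highest level in peritoneal macrophages, and its difference was -4.58 ± 0.92, adjusted p = 0.00156. C1qa was at 0.359, 0 and 0.274 CPM in sorted AMs against 2560.4 to 3858 CPM, median 3401 CPM, in the other 9 sorted libraries, and its difference was 10.69 ± 1.15, adjusted p = 2.65e-06. All 3 fitted contrasts were larger in size in sorted cells than in the cultures. That of Fabp4 in sorted cells (log2 fold change 4.82 ± 0.40, adjusted p = 1.67e-06) averages the other tissues on a log scale. Mean Fabp4 was 128 CPM in sorted AMs, 580 CPM in peritoneal macrophages, 6.02 CPM in Kupffer cells and 0.0220 CPM in microglia. Sorted AMs therefore lay below peritoneal macrophages for Fabp4. Csf1r, lower in both settings, had a difference of 1.498 ± 0.49, adjusted p = 0.0423. Txnip was at 719.8, 996 and 825 CPM in sorted AMs against 192 to 971 CPM, median 666 CPM, in the other 9 sorted libraries, with a log2 fold change of 0.55 ± 0.20, adjusted p = 0.0444, the opposite sign to that in culture, and its difference was -3.83 ± 0.59, adjusted p = 0.000139. Mean Txnip was 847 CPM in sorted AMs, 888 CPM in peritoneal macrophages, 700 CPM in microglia and 319 CPM in Kupffer cells. Sorted AMs were thus not above peritoneal macrophages for Txnip. Bnip3, with a log2 fold change of 0.45 ± 0.22, adjusted p = 0.12, in sorted cells, had a difference of -1.96 ± 0.57, adjusted p = 0.0233. Csf2rb had a log2 fold change of 2.10 ± 0.11, adjusted p = 3.41e-08, in sorted cells, and its difference was -0.16 ± 0.39, adjusted p = 0.929, with a 95% interval from -0.93 to 0.61. The differences of Car4 (-3.39 ± 1.96, adjusted p = 0.281), Siglecf (-2.71 ± 1.03, adjusted p = 0.0792), Cish (-0.60 ± 1.13, adjusted p = 0.855), Egln3 (1.15 ± 1.02, adjusted p = 0.533) and Slc2a1 (0.24 ± 0.42, adjusted p = 0.831) did not pass. In sorted cells alone the log2 fold changes of Car4 (13.61, adjusted p = 3.26e-06), Siglecf (7.79, adjusted p = 8.04e-07) and Cish (5.58, adjusted p = 1.9e-05) passed. So did that of Egln3 (-3.95, adjusted p = 0.00253), but not that of Slc2a1 (0.20, adjusted p = 0.572). Mean Egln3 was 0.139 CPM in sorted AMs, 0.638 CPM in microglia, 0.457 CPM in Kupffer cells and 33.9 CPM in peritoneal macrophages. Without single libraries of the 24, the call of Bnip3 was lost without sorted AM 3 or AM-LC 1 or 2 (adjusted p up to 0.0829), and that of Csf1r was lost in 16 cases, among them each sorted AM, microglia and peritoneal macrophage library (adjusted p up to 0.158). Siglecf passed without sorted Kupffer cell 2, sorted peritoneal macrophage 1 or MG-LC 1 or 3, and by limma-voom (adjusted p = 0.00922).

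**Figure D5:**
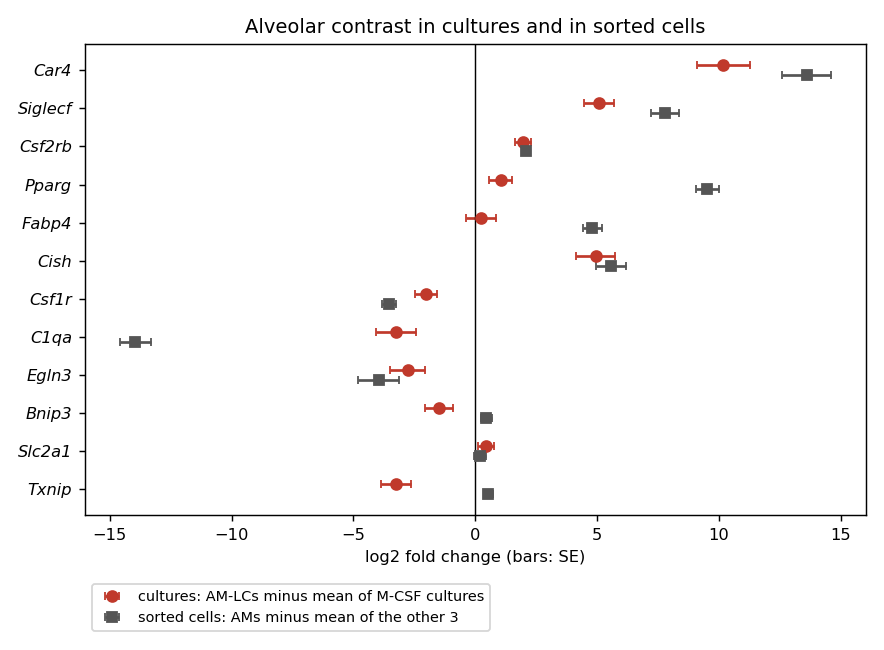
Log2 fold changes with SE bars of 12 genes, AM-LCs minus the mean of the M-CSF cultures (red circles) and sorted AMs minus the mean of the other sorted cells (grey squares). The pair of points lies close together for Csf2rb, Cish and Slc2a1 and far apart for Pparg, Fabp4 and C1qa, and it lies on opposite sides of 0 for Txnip.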

How the data were processed

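RNA of 12 culture libraries (3 each of AM-, MG-, KC- and PM-LCs) and 12 sorted libraries was made into libraries with the SMARTer Ultra Low v4 and Nextera XT kits, which do not mark strand, and sequenced as single reads. The authors deposited raw read counts per gene for all 24 libraries in 1 table, with mouse Ensembl identifiers. The study's methods name Trimmomatic, STAR and the mouse build mm10 (GRCm38), and the submitters' processing notes list Trimmomatic 0.36 and STAR 2.5.2b with another build name. Reads of overlapping genes and near-identical copies may be split between them.

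Counts were used as deposited. Groups came from the sample labels. In edgeR 4.0.16 (R 4.3.3), genes passing filterByExpr with a minimum count of 10 (14813 of 45706) were normalised by TMM and tested by the quasi-likelihood test over the 12 culture libraries, with 1 mean per culture. The contrast was AM-LCs minus the mean of the 3 M-CSF culture means, and AM-LCs minus each culture. Called means a Benjamini-Hochberg adjusted p under 0.05. Errors of log2 fold changes are standard errors computed back from the test, as the log2 fold change over the square root of its F statistic. The 95% intervals are 1.96 times these to either side. This multiplier makes no allowance for the residual degrees of freedom, so the intervals are narrower than the test implies. Values listed at 0 have an upper limit of 3 reads, which covers counting error only. Sorted cells were fitted in the same way, and the difference between settings in a model of all 24 libraries. The procedure was tested on simulated data. Alternatives were limma-voom (limma 3.58.1), DESeq2 1.42.0, RLE factors, 2 other filters, a fold threshold, other sets of libraries, a replicate block, and leaving out each library. The study's own test was limma-voom.

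The comparison, the 37 gene lists and the companion genes were chosen with earlier results of these data known. Genes named were key genes of a list, up to 4 further called members per list by size of change, the 10 largest called changes per direction with average log2 CPM above 5 and no overlap of libraries, and 12 companion genes. Results of 3 genes that this rule names are not reported here. Other genes named in passing (Lyve1, Ly6g and the like) were chosen after their values were seen. Promoter windows are from RefSeq on GRCm38.p6. Principal components were computed on log2 CPM with a prior count of 2.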

Additional observations from a re-analysis of the deposited data

Results flagged for a closer look

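Of 12 companion genes, 6 had an alveolar contrast that differed between cultured and sorted cells in the test of that difference (edgeR's quasi-likelihood test over all 24 libraries, adjusted over 17408 genes). The values are the log2 fold change in culture minus that in sorted cells. They were -8.51 for Pparg (adjusted p = 1.19e-05), -4.58 for Fabp4 (adjusted p = 0.00156) and 10.69 for C1qa (adjusted p = 2.65e-06). For these 3 genes the call held in all 27 alternatives, with adjusted p no higher than 0.000157, 0.0129 and 0.00164. Mean Fabp4 was nevertheless lower in sorted AMs (128 CPM) than in sorted peritoneal macrophages (580 CPM), and near 0 CPM in sorted microglia. Pparg had no read in sorted microglia, so the size of its difference depends on the prior count. Txnip had a difference of -3.83 (adjusted p = 0.000139, no higher than 0.00119 over 27 alternatives). The difference of Bnip3 was -1.96 (adjusted p = 0.0233, from 0.00792 to 0.0829 over the alternatives) and that of Csf1r was 1.498 (adjusted p = 0.0423, from 0.0195 to 0.158). The sorted cells had no added growth factor, were not kept at a set oxygen level and were not plated, so culture, growth factor and medium cannot be told apart in these differences.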

How the results depend on the processing

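The split into genes higher and lower in AM-LCs depended on the test and on single libraries. Against the mean of the M-CSF cultures (1241 higher, 698 lower), the genes higher numbered 704 with a log2 fold change above 1.5 required as well and 818 with the 9 M-CSF libraries as 1 group. The genes lower numbered 1424 by DESeq2, 371 with the fold threshold and 1322 with all 24 libraries in 1 fit. Against single cultures, DESeq2 gave 1421 higher and 1355 lower for MG-LCs, 1711 and 976 for KC-LCs and 1098 and 980 for PM-LCs. With all 24 libraries in 1 fit these were 1292 and 1295, 1244 and 937, and 841 and 966. The fold threshold left 393 higher than in MG-LCs and 275 lower than in KC-LCs, and without a filter on low counts 473 were higher than in MG-LCs. The cause of these shifts was not tested. Leaving out 1 library gave 557 to 1771 higher and 166 to 1112 lower for the mean, 205 to 914 and 89 to 788 for MG-LCs, 181 to 1063 and 70 to 731 for KC-LCs, and 88 to 733 and 51 to 685 for PM-LCs. Limma-voom, RLE size factors, a filter of 1 CPM in 3 libraries and KC- and PM-LCs alone kept both counts for the mean within 1.5 times.

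Of 110 called genes with a fitted change given here, 51 kept their call in every alternative that gave a value, which was 23 for most genes, 22 for Mmp8, Cidec and Cpa3 and 21 for Fabp1, and none changed sign. Limma-voom ended 14 of these calls, the M-CSF libraries as 1 group 21, KC- and PM-LCs only 12, the fold threshold 9 and the replicate block 10 (Cidec, Fabp1, Csf1, Irf4, C1qa, Stab1, Cx3cr1, Id3, Pfkfb3 and Pfkl). Of the 19 that were not called, 9 passed in at least 1 alternative (Csf2ra, Trem2, Lyz2, Cd68, Bnip3, Ddit3, Irf7, Isg15 and Mmp9), 8 of them with all 24 libraries in 1 fit and 6 by DESeq2, and with the replicate block Csf2ra passed (adjusted p = 0.0403). The difference of Siglecf between cultured and sorted cells passed with the block as well (adjusted p = 0.0479). Of the 19, 5 changed sign. Fabp4 was -0.19 against KC- and PM-LCs only, -0.12 with the M-CSF libraries as 1 group and -0.12 to 0.54 with 1 library left out, Lpl 0.27 by limma-voom and -0.26 to 0.10 with 1 left out, Csf2rb2 -0.36 to 0.10, Spi1 -0.18 against KC- and PM-LCs only and -0.070 to 0.18, and Itgam 0.041 against KC- and PM-LCs only and -0.29 to 0.066. The difference of the Csf2rb contrast between cultured and sorted cells ran from -0.30 to 0.014 with 1 library left out, and was above 0 without MG-LC 3 (0.000332) or PM-LC 3.

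The deviations of 18 same-numbered pairs correlated from -0.444 to 0.316 (median 0.089, 6 above 0.1), and those of 36 other pairs from -0.502 to 0.486 (median -0.024). Whether libraries of the same number shared mice cannot be decided from these correlations, because differences between single libraries enter them as well. With the replicate number as a block, 1162 genes were higher and 600 lower than the mean of the M-CSF cultures, 703 and 429 than MG-LCs, 517 and 292 than KC-LCs and 344 and 257 than PM-LCs, and 1575 of the 1762 calls against the mean were shared with the 1939 without it. In an alternative chosen after seeing the data, without AM-LC 3, MG-LC 1 and PM-LC 2, 1436 genes were higher and 891 lower than the mean. Depth set a limit of 0.0659 to 0.104 CPM per library.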
